A study of Mus musculus with 18 samples.

Results

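The set held 31 genes that encode cardiac ion channels, their auxiliary subunits and connexins, chosen by name, and their promoters were followed in ChIP-seq of mouse ventricles with an antibody against RNA polymerase II (Pol II). Each gene was represented by the peak within 5000 nt of its annotated start with the highest summed Pol II value over 6 libraries. Such a peak existed for 28 of the 31 members, among 13979 genes with a symbol and a promoter peak. *Scn10a*, *Cacna1d* and *Gja5* had none. The 31 members had 82 promoter peaks in all, out of 38260 promoter peaks and 101256 peaks in the series.

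Chromatin came from ventricles of 2 adult mouse hearts per preparation in 3 genotypes. The controls were labelled WT. *Trdn-as* KO mice carry a polyadenylation site in the first exon of *Trdn-as*, an RNA antisense to the triadin gene, and descend from edited embryonic stem cells. *Mettl3* KO mice (Mettl3lox/lox:alphaMHC-MerCreMerpos) lose the m6A methyltransferase METTL3 after tamoxifen, and because the alphaMHC promoter restricts the Cre to cardiomyocytes, the other cells of these hearts keep the gene. Whether the WT mice of these libraries carried floxed alleles or received tamoxifen is not stated in the sources used here. Each genotype had 2 Pol II libraries, 2 libraries for CTCF, a DNA-binding protein that was the positive control, and 1 IgG library as background. That the replicates came from separate preparations is not stated for every pair, so the p-values measure the spread between libraries, which may be technical. The values are reads per peak divided by a size factor of each library and rounded, called values here. With the value of 1 read estimated from the spacing of the values, 18.6% to 42.6% of the uniquely mapped reads of the Pol II libraries lay in peaks. The lowest share was that of *Trdn-as* KO replicate 2, which also had the lowest of the 6 Pol II values at 17 of 28 members and at 61.4% of 12343 genes. At the *Trdn-as* promoter (ENSMUSG00000112707) Pol II was 530 and 595 (WT) and 140 and 100 (*Trdn-as* KO). The *Mettl3* promoter, with 177 and 202 (WT) and 240 and 235 (*Mettl3* KO), gave no check of the *Mettl3* KO label.

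The cardiac action potential is the sum of currents through these channels. Sodium channels carry the upstroke, calcium channels maintain the plateau, and several families of potassium channels return the membrane to rest. Connexins form the gap junctions through which the impulse passes from cell to cell, and pacemaker channels are characteristic of the conduction system. Promoter-bound Pol II shows that polymerase is present at a gene, paused or elongating, and does not measure the RNA made from it.

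Promoter sequences of 4 members are shown because they stand for the range met below. *Scn4b* is the member called lower in *Mettl3* KO hearts, *Gja1* had the highest summed values, *Trpm7* the highest value per kb of peak, and *Kcnj3* the second lowest CTCF value per kb. Each sequence runs from 250 bases before the annotated start to 50 after it, 5′ to 3′, from RefSeq on GRCm38.p6, whereas all peak coordinates in the text are GRCm39. Capitals mark matches on either strand to the letters of a motif, which are the E-box (CACGTG) in *Trpm7*, the GATA site (AGATAA) in *Gja1*, the GC box (GGGCGG) in *Kcnj3*, and the CTCF core (AGNNGGC) in *Scn4b*, *Gja1* and *Kcnj3*.
Scn4b, chr9:45138374-45138673 (plus strand): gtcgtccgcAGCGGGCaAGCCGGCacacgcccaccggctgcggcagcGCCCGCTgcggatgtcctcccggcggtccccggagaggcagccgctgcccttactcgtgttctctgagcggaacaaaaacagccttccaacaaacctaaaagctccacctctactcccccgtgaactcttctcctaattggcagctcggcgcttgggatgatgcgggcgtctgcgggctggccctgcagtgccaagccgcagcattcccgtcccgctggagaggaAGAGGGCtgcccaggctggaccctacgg
Gja1, chr10:56377050-56377349 (plus strand): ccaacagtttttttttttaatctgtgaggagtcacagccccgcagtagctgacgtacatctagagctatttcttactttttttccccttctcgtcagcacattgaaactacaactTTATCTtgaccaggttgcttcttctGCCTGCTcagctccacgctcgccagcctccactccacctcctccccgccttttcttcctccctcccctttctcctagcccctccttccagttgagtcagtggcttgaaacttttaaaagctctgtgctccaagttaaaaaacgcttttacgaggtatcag
Kcnj3, chr2:55435720-55436019 (plus strand): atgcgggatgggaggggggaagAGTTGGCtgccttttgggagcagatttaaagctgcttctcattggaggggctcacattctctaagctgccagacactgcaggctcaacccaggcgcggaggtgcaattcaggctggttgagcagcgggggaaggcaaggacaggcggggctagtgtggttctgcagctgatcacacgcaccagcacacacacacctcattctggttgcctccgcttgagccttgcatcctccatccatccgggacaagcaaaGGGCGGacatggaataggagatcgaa
Trpm7, chr2:126876212-126876511 (minus strand): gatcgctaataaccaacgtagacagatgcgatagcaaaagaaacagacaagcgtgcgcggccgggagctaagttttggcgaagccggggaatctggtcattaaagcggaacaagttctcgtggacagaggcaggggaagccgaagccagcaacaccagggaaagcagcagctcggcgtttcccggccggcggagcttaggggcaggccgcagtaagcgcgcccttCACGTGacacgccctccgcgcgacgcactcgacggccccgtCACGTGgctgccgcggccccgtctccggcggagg

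Of the members, 21 matched the RefSeq table, with 22 promoters. *Abcc8*, *Cacna1h*, *Trpm4*, *Kcnj11*, *Kcne1*, *Kcnn2*, *Cacna1g*, *Kcnk3*, *Gjc1* and *Kcnq1* were not matched. The median GC content of the 22 promoters was 63.8%, against 52.7% of all 32851 promoters in the table, and their median CpG ratio (observed over expected) was 0.542 against 0.384. The GC box stood in 12 of 22 member promoters and in 35.7% of all promoters. The CTCF core stood in 17 of 22 and in 59.8% of all. The TATA box (TATAAA) was found in 1 member promoter, a promoter of *Cacna1d*, and in 13.6% of all. The E-box was found in 2 member promoters, *Kcnj2* and *Trpm7*, against 7.15% of all, with 2 matches in *Trpm7* at -25 and 16 from the start (counted from 0). The GATA site was found in 1, *Gja1*, against 11.2% of all. No member promoter held a MEF2 site or a CArG box, which 0.557% and 1.63% of all promoters held. A match here is a match of letters and not a bound site.

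The level of Pol II at the member promoters in WT ranged from 16.3 per kb of peak at *Kcne1* to 250.0 per kb at *Trpm7*. The median over the 28 members was 92.2 per kb, and that over all 13979 genes was 125.9 per kb. At least 78.6% of all genes had a lower level per kb than *Trpm7* (250.0), *Trpm4* (217) or *Gja1* (203), which encode a channel fused to a kinase, a calcium-activated cation channel and the main connexin of the ventricle. The next were *Kcnj11* (183) and *Kcnj2* (174), the pore subunits of the ventricular ATP-sensitive and inward rectifier channels, and *Kcnh2* (167), the pore of the rapid delayed rectifier. The lowest levels after *Kcne1* were at *Kcna4* (28.5), a pore subunit of the slow transient outward current, and *Scn4a* (32.9), the sodium channel of skeletal muscle. Pol II per uniquely mapped read exceeded the IgG library in both WT libraries at all 28 members, with a median ratio of 12.4. In each knockout it did so at 27 members, the exceptions being *Scn4a* in *Trdn-as* KO (mean 0.654 of IgG) and *Scn4b* in *Mettl3* KO (0.656). CTCF had a median of 30.5 per kb at the member promoters and of 42.4 per kb at all genes, highest at *Hcn2* (52.5) and lowest at *Kcnj8* (13.2).

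**Figure D1:**
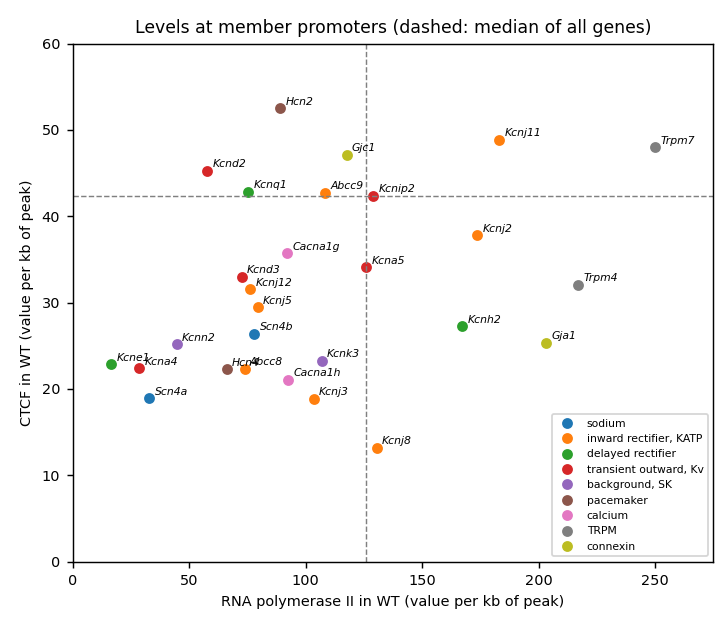
Mean WT value per kb of promoter peak for Pol II (horizontal axis) and CTCF (vertical axis) at the 28 members, coloured by role, with dashed lines at the medians of all genes with a symbol (125.9 and 42.4). *Trpm7*, *Trpm4* and *Gja1* lie at the right at 203 to 250.0, and *Kcne1*, *Kcna4* and *Scn4a* at the left at 16.3 to 32.9.

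The chosen peak covered the annotated start at 21 members and lay beside it at 7, namely *Scn4a*, *Kcnj5*, *Kcnq1*, *Kcne1*, *Hcn2*, *Hcn4* and *Cacna1g*. At 3 members the peak overlapped another gene of the table, and ChIP reads carry no strand, so the genes cannot be told apart there. The *Trpm4* peak also held the start of *Hrc*, the *Kcnk3* peak that of the antisense gene ENSMUSG00000053214, and the *Hcn2* peak overlapped the end of *Bsg* by 586 nt. The peak at the start of *Hcn2* itself, from 79552228 to 79552629 on chromosome 10, had Pol II values of 8 and 25 (WT), 31 and 22 (*Trdn-as* KO) and 16 and 18 (*Mettl3* KO).

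The first comparison asked whether Pol II at these promoters differed in hearts without *Trdn-as*, whose partner triadin belongs to the calcium release complex. None of the 28 members passed the test in *Trdn-as* KO against WT (limma on log2(value + 1) over 52655 peaks, Benjamini-Hochberg adjusted p below 0.05), and 3 had an unadjusted p below 0.05. Of all peaks tested, 0.304% passed, and of 12343 genes represented by 1 promoter peak 0.251%. The share of all peaks at the unadjusted threshold is not given here. The log2 fold changes of the members ran from -0.74 at *Cacna1h* to 0.41 at *Kcnj5*, with a median of -0.01 and a median standard error (SE) of 0.23. The median of the 12343 genes was -0.03. In both *Trdn-as* KO libraries 2 members lay above both WT libraries and 6 below, whereas 24.0% of the genes did not overlap, 1403 of them above and 1562 below.

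The members with the largest differences that kept the libraries apart were the following. *Gja1* had Pol II values of 1348 and 1436 (WT) and of 1251 and 947 (*Trdn-as* KO) (log2 fold change -0.35, SE 0.13, limma adjusted p = 0.40). Both *Trdn-as* KO libraries were lower, and replicate 2 more so. It was called lower in 2 of the alternatives, with an adjusted p from limma of 0.00083 without *Trdn-as* KO replicate 1 and of 0.031 with recomputed median-of-ratios factors, in a range up to 1. Without *Trdn-as* KO replicate 1, calls over all peaks went from 42 higher and 118 lower to 34 and 2151. *Hcn2*, a pacemaker channel subunit, had 211 and 268 (WT) and 191 and 149 (*Trdn-as* KO) (-0.49, SE 0.21, limma adjusted p = 0.54). This peak overlaps the end of *Bsg*, and the peak over the start of *Hcn2* had a positive change (0.83, SE 0.48, limma adjusted p = 0.73). *Kcnn2*, a small-conductance calcium-activated potassium channel, had 59 and 63 (WT) and 55 and 35 (*Trdn-as* KO) (-0.46, SE 0.31, adjusted p = 0.79). At both genes the *Trdn-as* KO libraries lay further from each other than the nearer of them lay from WT. On the other side, *Kcnj5*, a subunit of the acetylcholine-activated inward rectifier, had 146 and 142 (WT) and 183 and 200 (*Trdn-as* KO) (0.41, SE 0.21, limma adjusted p = 0.69). *Kcnj12*, an inward rectifier pore, had 87 and 104 (WT) and 132 and 106 (*Trdn-as* KO) (0.31, SE 0.25, adjusted p = 0.84). With library size set by uniquely mapped reads, both of these turned negative (-0.19 and -0.28), and the median of all peaks moved from -0.07 to -0.67. Summed over all promoter peaks of the gene, the changes were 0.17 and 0.014. The chosen *Kcnj5* peak lay 3620 nt from the start, and the peak over the start had 56 and 50 (WT) and 46 and 59 (*Trdn-as* KO).

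**Figure D2:**
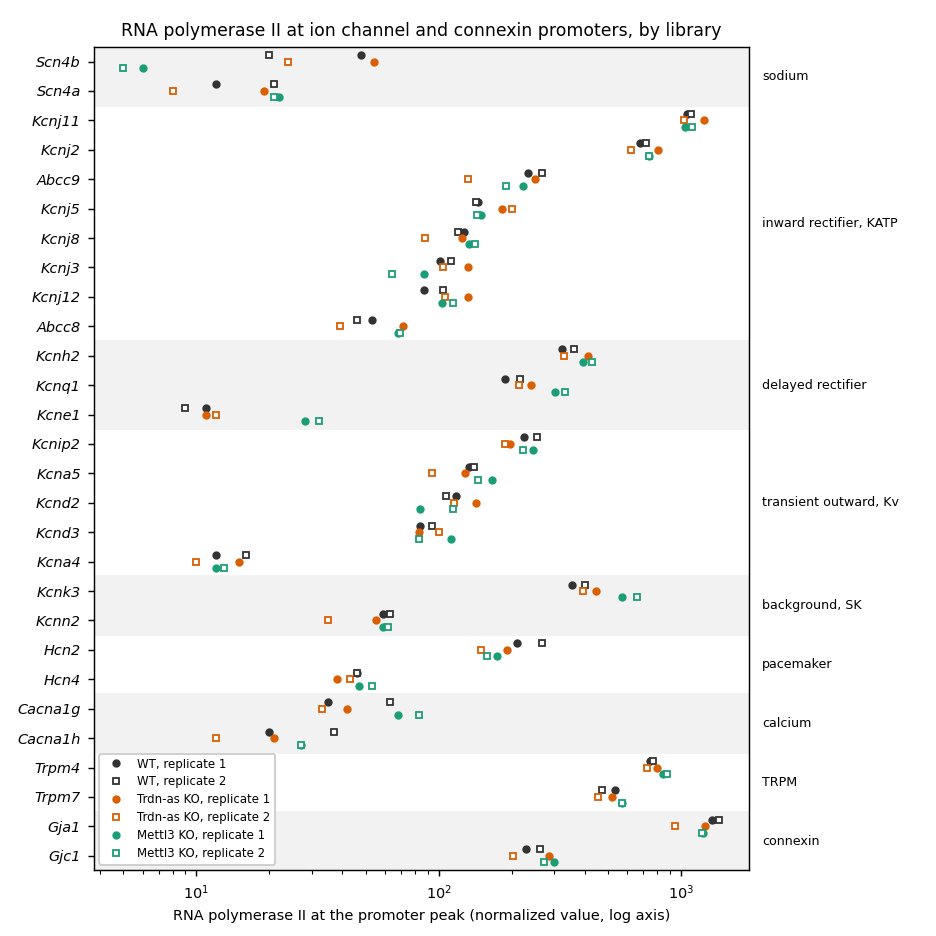
Pol II value at the chosen promoter peak (log axis) of each of the 28 members in the 6 libraries, grouped by role, with circles for replicate 1 and squares for replicate 2. The *Mettl3* KO libraries stand apart at *Scn4b* (6 and 5), *Kcne1* (28 and 32) and *Kcnk3* (572 and 658), and *Trdn-as* KO replicate 2 lies lowest at 17 members.

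The second comparison asked the same of hearts whose cardiomyocytes lack METTL3. Pol II was called lower at the promoter of *Scn4b* and higher at that of *Kcnk3* in *Mettl3* KO against WT. Thus 2 of 28 members passed the test, against 1.19% of 52655 peaks and 1.76% of the 12343 genes. No member was called without the filter on low values or without a variance trend, and 5 were with recomputed median-of-ratios factors. Over all peaks, 375 higher and 254 lower became 6 and 1 without the filter, 2 and 0 without the trend and 1301 and 959 with these factors. The median log2 fold change of the members was 0.12, that of the genes 0.26 and that of all peaks 0.08. In this comparison 13 members lay above both WT libraries and 5 below, and 74.4% of the genes did not overlap, 8261 of them above WT and 922 below. With library size set by uniquely mapped reads, the median of all peaks turned to -0.06, and calls over all peaks went to 9 higher and 21 lower. Both knockouts were compared with the same 2 WT libraries.

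*Scn4b* encodes an auxiliary beta subunit that modifies the gating of sodium channels. At its promoter peak (chromosome 9 from 45049689 to 45050124), which covers the annotated start and carried 72.4% of its promoter signal, Pol II was 48 and 20 (WT), 54 and 24 (*Trdn-as* KO) and 6 and 5 (*Mettl3* KO). Every *Mettl3* KO library lay below every other library, and within WT and *Trdn-as* KO the libraries differed from each other by more than 2-fold. The log2 fold change was -2.31 (SE 0.48, limma adjusted p = 0.0041), a ratio of 0.202 of value + 1. Against *Trdn-as* KO the difference was also called, with a log2 fold change of 2.52 for *Trdn-as* KO over *Mettl3* KO (SE 0.48, limma adjusted p = 0.0011). The *Mettl3* KO values rest on an estimated 4.96 and 3.12 reads, against 35.2 and 21.2 (WT). They lie under the filter value of 10, so the peak was tested only through its WT and *Trdn-as* KO libraries. Without the filter or without the variance trend, neither of these calls was made. Relative to uniquely mapped reads (RPM) the 2 *Mettl3* KO libraries held 0.456 and 0.414 RPM, below the 0.663 of the IgG library of that genotype, and the WT libraries held 4.05 and 1.81, above 0.475 of their IgG. The call in *Mettl3* KO against WT rested on every library of these 2 genotypes. Its adjusted p from limma was 0.22 without *Mettl3* KO replicate 1, 0.56 without replicate 2, 0.84 without WT replicate 1 and 0.13 without WT replicate 2, with log2 fold changes between -2.92 and -1.70. The call against *Trdn-as* KO was lost without either *Mettl3* KO replicate (adjusted p = 0.20 and 0.42 from limma), without *Trdn-as* KO replicate 2 (0.063) and without WT replicate 1 (0.076). The gene had 1 peak in its body, with Pol II values of 5 and 10 (WT) and 8 and 6 (*Mettl3* KO) and CTCF values of 100 and 95 (WT) and 102 and 96 (*Mettl3* KO). *Scn4a* had Pol II values of 12 and 21 (WT), 19 and 8 (*Trdn-as* KO) and 22 and 21 (*Mettl3* KO), with overlapping libraries in WT and *Mettl3* KO (0.41, SE 0.50, adjusted p = 0.73).

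*Kcnk3* encodes a background potassium channel that is sensitive to acid. At its promoter peak (chromosome 5 from 30743816 to 30747357) Pol II was 355 and 402 (WT), 445 and 395 (*Trdn-as* KO) and 572 and 658 (*Mettl3* KO). Both *Mettl3* KO libraries lay above the other 4, whose ranges overlapped. The log2 fold change against WT was 0.70 (SE 0.16, limma adjusted p = 0.013), 1.62-fold. Without *Mettl3* KO replicate 1 or 2 the adjusted p from limma was 0.29 and 0.68, and without WT replicate 1 or 2 it was 0.84 and 0.40. The call was also lost with library size set by uniquely mapped reads (log2 fold change 0.56, limma adjusted p = 1). The peak also holds the start of the antisense gene, so the rise cannot be assigned to 1 of the 2. The 9 peaks in the body of *Kcnk3* summed to 250 and 265 (WT) and 327 and 262 (*Mettl3* KO), which overlap (0.18, SE 0.18, adjusted p = 0.70). *Kcnn2* had 59 and 62 (*Mettl3* KO), within the range of WT.

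**Figure D3:**
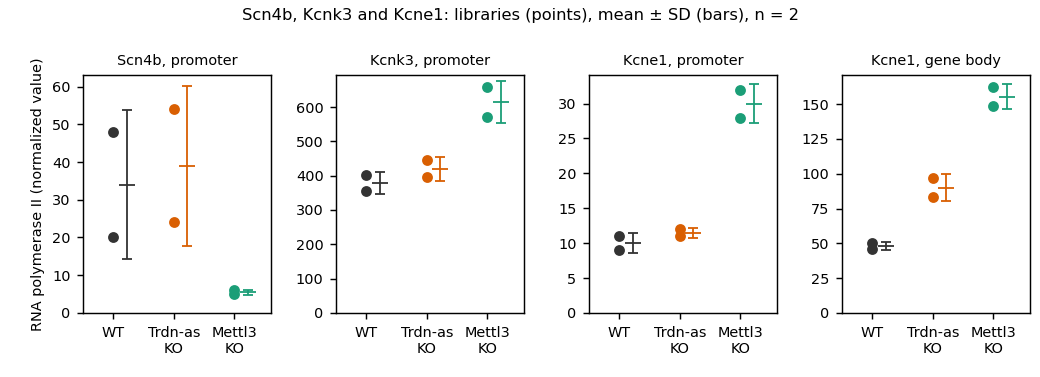
Pol II value in each library (points) with mean ± SD (bars, n = 2) at the promoters of *Scn4b*, *Kcnk3* and *Kcne1* and at the body peak of *Kcne1*, by genotype, each panel with its own axis from 0. At *Scn4b* the *Mettl3* KO libraries lie at 6 and 5, and at the body of *Kcne1* the order is WT (46 and 50), *Trdn-as* KO (97 and 83) and *Mettl3* KO (162 and 149).

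Of the 3 delayed rectifier genes none passed the test at its promoter, and the single body peak of *Kcne1*, near the end of the gene, passed in *Mettl3* KO hearts. *Kcne1*, the auxiliary subunit that slows the activation of the *Kcnq1* channel, had promoter values of 11 and 9 (WT), 11 and 12 (*Trdn-as* KO) and 28 and 32 (*Mettl3* KO) (1.50, SE 0.50, limma adjusted p = 0.13 against WT). Its chosen peak, from 92152839 to 92153450 on chromosome 16, lay inside the gene and 3211 nt from the annotated start. In WT the level was 1.60 times that of IgG per mapped read. The adjusted p from limma fell to 0.042 without *Trdn-as* KO replicate 1 and to 0.046 without replicate 2, which leave the values compared as they are and alter the estimate of the spread. It was 0.039 with only the 2 genotypes in the fit and 0.0061 summed over both promoter peaks, and the other 11 of 15 alternatives gave no call, with an adjusted p up to 0.84 (without WT replicate 1). *Kcnq1*, the pore of the slow delayed rectifier, had 202 ± 19.8 (SD, n = 2) in WT, 227.5 ± 19.1 (*Trdn-as* KO) and 318 ± 21.2 (*Mettl3* KO), with a log2 fold change of 0.65 (SE 0.19, limma adjusted p = 0.066) in *Mettl3* KO. It was called higher with median-of-ratios factors, a pseudocount of 5, summed promoter peaks or only the 2 genotypes in the fit, and without either *Trdn-as* KO library. *Kcnh2* had 324 and 363 (WT), 414 and 330 (*Trdn-as* KO) and 396 and 429 (*Mettl3* KO) (0.26, SE 0.17, adjusted p = 0.46), which equals the median of all genes. The body peaks of *Kcnh2* and *Kcnq1* overlapped between WT and *Mettl3* KO.

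For gene bodies, peaks without a promoter assignment that lay inside a gene were summed. Of 23 members with such peaks 22 were tested among 5428 genes. In *Trdn-as* KO 0 of 22 passed, against 0.479% of the genes, and in *Mettl3* KO 1 of 22, against 2.67%. In *Trdn-as* KO 3 members had an unadjusted p below 0.05, a threshold at which the share of all genes is not given here. That gene was *Kcne1*, whose single body peak (chromosome 16 from 92142973 to 92143870, 12.9 kb from the start) had 46 and 50 (WT), 97 and 83 (*Trdn-as* KO) and 162 and 149 (*Mettl3* KO). *Kcne1* is 13487 nt long, so this peak lies at its end and does not measure the body as a whole. The 3 genotypes did not overlap. In *Mettl3* KO the log2 fold change was 1.68 (SE 0.24, limma adjusted p = 1.7e-06), 3.19-fold, and the call was kept without each library in turn, with an adjusted p between 0.0021 and 0.044. In *Trdn-as* KO it was 0.89 (SE 0.24, limma adjusted p = 0.070), not called. The peak had an adjusted p of 0.35 with uniquely mapped reads as library size and of 0.25 without a variance trend for *Mettl3* KO. Past the end of the gene 2 further peaks were chosen after their values were seen. The nearer one, from 92142018 to 92142563, had 22 and 37 (WT), 55 and 55 (*Trdn-as* KO) and 75 and 70 (*Mettl3* KO) (1.31, SE 0.32, limma adjusted p = 0.022 for *Mettl3* KO). The other, from 92137537 to 92138672, had 26 and 25 (WT), 31 and 22 (*Trdn-as* KO) and 69 and 86 (*Mettl3* KO) (1.56, SE 0.35, adjusted p = 0.0090). CTCF at this last peak was 111 and 91 (WT) and 96 and 104 (*Mettl3* KO).

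**Figure D4:**
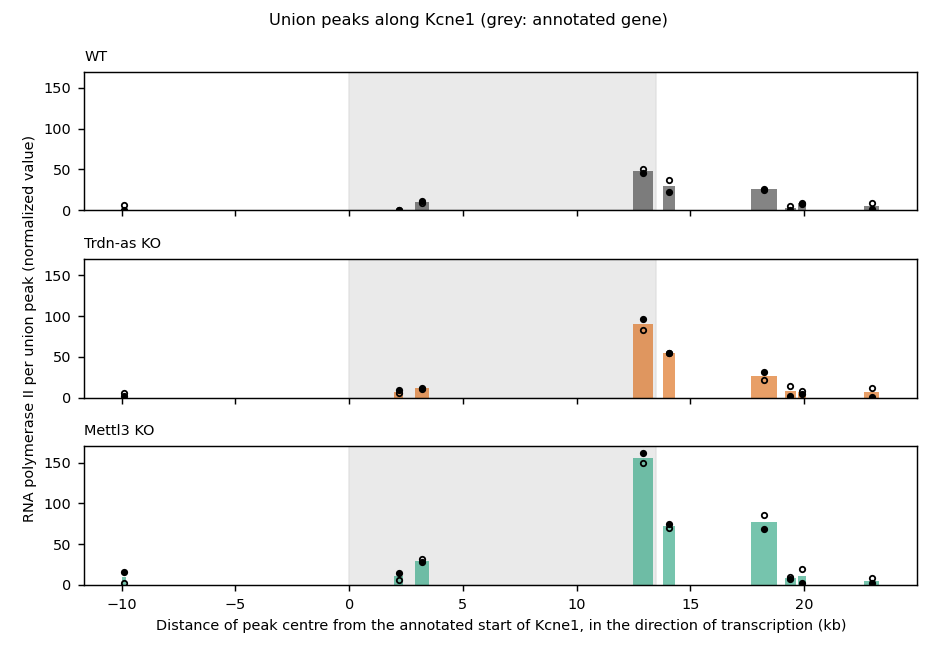
Pol II value of each peak within 10000 nt of *Kcne1* by distance from its annotated start in the direction of transcription (kb), with bars at the mean of 2 libraries, as wide as the peak, and points for the libraries. The body peak near 12.9 kb rises from 46 and 50 (WT) to 162 and 149 (*Mettl3* KO), and the peaks nearest the start stay at 32 or less.

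Among the inward rectifiers and ATP-sensitive channels, 0 of 8 members passed in either knockout, with a median log2 fold change of 0.08 (*Trdn-as* KO) and 0.06 (*Mettl3* KO). *Kcnj11*, the pore of the ATP-sensitive channel, had 1062 and 1103 (WT), 1243 and 1034 (*Trdn-as* KO) and 1036 and 1109 (*Mettl3* KO), and its log2 fold change of -0.01 (*Mettl3* KO) had 2 standard errors reaching from -0.27 to 0.24. *Abcc8*, a sulfonylurea receptor, had 53 and 46 (WT), 71 and 39 (*Trdn-as* KO) and 68 and 69 (*Mettl3* KO). *Kcnj3*, the partner of *Kcnj5* in the acetylcholine-activated channel, had 101 and 113 (WT), 132 and 104 (*Trdn-as* KO) and 87 and 64 (*Mettl3* KO). The *Mettl3* KO libraries of *Kcnj3* lay below all others, yet the difference from WT was not called (-0.51, SE 0.25, limma adjusted p = 0.32). *Kcnj2* had 698.5 ± 26.2 (SD, n = 2) in WT, 711 ± 127 (*Trdn-as* KO) and 738.5 ± 0.707 (*Mettl3* KO). *Kcnj8*, the vascular pore of the ATP-sensitive channel, had 123.5 ± 4.95, 106.5 ± 26.2 and 137 ± 5.66 in the same order, and *Abcc9*, the receptor subunit of the ventricular channel, 250.5 ± 23.3, 191.5 ± 84.1 and 206 ± 24.0. A smaller second promoter peak of *Kcnj11*, from 45753080 to 45753564 on chromosome 7, had 35 and 37 (WT), 36 and 12 (*Trdn-as* KO) and 13 and 8 (*Mettl3* KO), and was called lower in *Mettl3* KO (-1.72, SE 0.47, limma adjusted p = 0.044).

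The transient outward and other voltage-gated potassium channels had 0 of 5 calls in either knockout. *Kcnip2*, the auxiliary subunit of the fast transient outward channel, had 226 and 255 (WT), 197 and 187 (*Trdn-as* KO) and 246 and 222 (*Mettl3* KO) at its main peak. Its *Trdn-as* KO libraries were the lowest, with a log2 fold change of -0.32 (SE 0.20, limma adjusted p = 0.75) against WT. *Kcna4* had 12 and 16 (WT), 15 and 10 (*Trdn-as* KO) and 12 and 13 (*Mettl3* KO). At these values the standard error was 0.55 on the log2 scale, and a change of 2-fold was within 2 standard errors. The pore genes of the fast transient outward current were *Kcnd2*, with 118 and 107 (WT), 142 and 116 (*Trdn-as* KO) and 84 and 115 (*Mettl3* KO), and *Kcnd3*, with means of 89 ± 7.07 (SD, n = 2), 91.5 ± 12.0 and 98 ± 21.2 in that order. *Kcna5*, of the ultrarapid current, had 136.5 ± 4.95 (SD, n = 2), 111 ± 24.0 and 156 ± 14.1.

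Pacemaker, calcium, TRPM and connexin genes had no call against WT in either knockout. The peak over the start of *Hcn2* had a log2 fold change of 0.23 in *Mettl3* KO (SE 0.48, limma adjusted p = 0.85). The chosen *Hcn2* peak, which overlaps the end of *Bsg*, had 174 and 158 (*Mettl3* KO), below both WT libraries (-0.52, SE 0.21, limma adjusted p = 0.21). It was called lower with median-of-ratios factors (limma adjusted p = 0.019), with only the 2 genotypes in the fit (0.041) and without either *Trdn-as* KO library (0.039 and 0.040), in a range up to 1. The 7 body peaks of *Hcn2* summed to 118 and 88 (WT) and 61 and 57 (*Mettl3* KO) (-0.78, SE 0.25, limma adjusted p = 0.080). *Hcn4*, the main pacemaker subunit of the sinus node, had 46 and 46 (WT), 38 and 43 (*Trdn-as* KO) and 47 and 53 (*Mettl3* KO). The 2 genes of T-type calcium channels had small values at short peaks (532 and 309 nt). Per kb of peak they had 92.1 and 92.2 in WT, near the median of the members (92.2). *Cacna1g* had 35 and 63 (WT), 42 and 33 (*Trdn-as* KO) and 68 and 83 (*Mettl3* KO) (0.67, SE 0.32, limma adjusted p = 0.30 in *Mettl3* KO), and *Cacna1h* had 20 and 37, 21 and 12, and 27 and 27. Of these 2 genes only *Cacna1g* had both *Mettl3* KO libraries above all others. *Trpm4* had 746 and 769 (WT), 796 and 727 (*Trdn-as* KO) and 845 and 876 (*Mettl3* KO), and *Trpm7* 534 and 471, 517 and 456, and 571 and 571. *Gja1* had 1232 and 1221 (*Mettl3* KO), below both WT libraries (-0.18, SE 0.13, limma adjusted p = 0.50), and was called lower under the same 4 alternatives as *Hcn2*. *Gjc1*, a connexin of nodal tissue, had 230 and 261 (WT), 286 and 202 (*Trdn-as* KO) and 299 and 272 (*Mettl3* KO).

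**Figure D5:**
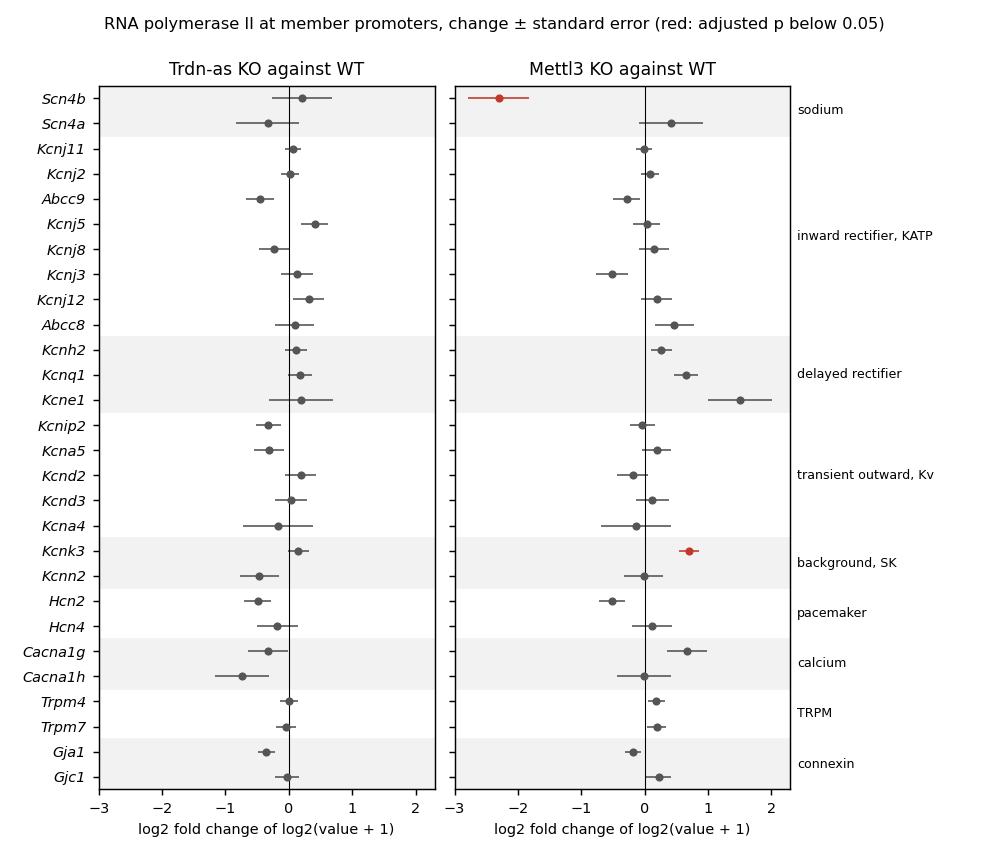
Log2 fold change of Pol II (on log2(value + 1)) with its standard error at the 28 member promoters in *Trdn-as* KO (left) and *Mettl3* KO (right) against WT, red where the adjusted p from limma is below 0.05. All members of the left panel are grey and lie between -0.74 and 0.41, and in the right panel *Scn4b* (-2.31) and *Kcnk3* (0.70) are red.

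The knockouts were also compared with each other. Of the 28 members *Scn4b* alone was called, higher in *Trdn-as* KO, against 1.5% of 52655 peaks and 2.06% of the 12343 genes. In this comparison 4 members lay higher in both *Trdn-as* KO libraries and 13 lower, against 61.3% of the genes not overlapping, 605 of them higher and 6963 lower. The largest differences that were not called were at *Kcne1* (-1.31, SE 0.50, limma adjusted p = 0.16), *Cacna1g* (-0.99, SE 0.32, adjusted p = 0.091) and *Scn4a* (-0.75, SE 0.50, adjusted p = 0.44, with the mean of *Trdn-as* KO below IgG) in 1 direction. In the other they were at *Kcnj3* (0.64, SE 0.25, adjusted p = 0.17) and *Kcnd2* (0.38, SE 0.24, adjusted p = 0.41). The second promoter peak of *Kcnip2* (chromosome 19 from 45801304 to 45802876) was called higher in *Trdn-as* KO, with 74 and 71 against 42 and 24 (*Mettl3* KO) and 49 and 81 (WT) (1.16, SE 0.32, limma adjusted p = 0.043). Neither knockout was called against WT at that peak. This comparison moved most with 1 library, and without *Trdn-as* KO replicate 1 it gave 12 calls in place of 1, with 11 lower in *Trdn-as* KO, while calls over all peaks went from 187 higher and 603 lower to 282 and 9507.

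CTCF was tested at 27 members among 60649 peaks, and none was called in any comparison. All peaks were called at 0.587% in *Trdn-as* KO against WT, 0.185% in *Mettl3* KO against WT and 1.37% between the knockouts. In the same order 3, 5 and 4 members had an unadjusted p below 0.05, a threshold at which the share of all peaks is not given here. Among the chosen peaks the nearest to the threshold was *Kcne1*, with CTCF values of 17 and 11 (WT), 18 and 20 (*Trdn-as* KO) and 23 and 34 (*Mettl3* KO) (0.98, SE 0.23, limma adjusted p = 0.074 in *Mettl3* KO). *Kcna5* followed, with 35 and 39 (WT), 24 and 25 (*Trdn-as* KO) and 21 and 25 (*Mettl3* KO) (-0.67, SE 0.17, adjusted p = 0.086). A second promoter peak of *Cacna1h* lay nearer, with 24 and 29 (WT) and 15 and 14 (*Trdn-as* KO) (-0.82, SE 0.19, limma adjusted p = 0.062). At *Scn4b* CTCF was 12 and 11 (WT), 8 and 9 (*Trdn-as* KO) and 8 and 8 (*Mettl3* KO), and at *Kcnk3* 86 and 79, 81 and 75, and 95 and 98.

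Ventricular chromatin holds several cell types, and fewer cells of a type and less polymerase per cell cannot be told apart. Cardiomyocyte markers, of which 13 of 14 had a promoter peak, summed to 33178 and 35440 (WT), 34094 and 26275 (*Trdn-as* KO) and 34062 and 34281 (*Mettl3* KO). Of these *Myh6*, the main myosin heavy chain of the adult mouse heart, was called for Pol II, with 10654 and 11527 (WT), 9901 and 7625 (*Trdn-as* KO) and 11283 and 11566 (*Mettl3* KO). It was lower in *Trdn-as* KO than in WT (-0.35, limma adjusted p = 0.029) and than in *Mettl3* KO (-0.39, adjusted p = 0.0041), and its part in the *Trdn-as* KO values of the members was not tested. The MerCreMer transgene of the *Mettl3* KO mice carries the promoter of *Myh6* (alphaMHC). In that genotype reads of transgene and gene cannot be told apart at *Myh6*, nor in the cardiomyocyte sum. Of 10 fibroblast markers 5 rose in *Mettl3* KO against WT and 0 fell, with a median log2 fold change of 1.01, among them *Col3a1* (1.45), *Col1a1* (1.19), *Col1a2* (1.09) and *Pdgfra* (1.12). Between the knockouts 5 were lower in *Trdn-as* KO, among them *Col3a1* (-1.11), *Col1a2* (-0.95), *Col1a1* (-0.86) and *Postn* (-1.50). Their Pol II summed to 995 and 1060 (WT), 1500 and 1070 (*Trdn-as* KO) and 2068 and 2029 (*Mettl3* KO). Of 10 mural cell markers, with a median of -0.016 in *Mettl3* KO against WT, *Pdgfrb* rose (0.78) and was lower in *Trdn-as* KO than with *Mettl3* deleted (-0.73). The mural sums were 928 and 1042 (WT), 1022 and 787 (*Trdn-as* KO) and 1131 and 1113 (*Mettl3* KO). The part of the fibroblast markers in the higher *Kcnk3* and *Kcne1* values of *Mettl3* KO hearts was not tested. Pol II was called at 0 of the markers of atria and conduction tissue, endothelium, leukocytes, Schwann cells and neurons, and skeletal muscle in any comparison. Their sums spanned 885 to 1119, 1902 to 2444, 191 to 264, 110 to 142 and 1019 to 1296. CTCF was called at 3 markers, with the same limit for *Myh6* in *Mettl3* KO. *Myh6* was higher in *Mettl3* KO than in WT (0.67, limma adjusted p = 6.9e-05) and than in *Trdn-as* KO (-0.50 for *Trdn-as* KO over *Mettl3* KO), *Pln* was higher in *Trdn-as* KO than in the other knockout (0.24), and *Robo4*, an endothelial receptor, was lower in *Mettl3* KO than in WT (-0.81, limma adjusted p = 0.030) and than in *Trdn-as* KO (0.99 for *Trdn-as* KO over *Mettl3* KO).

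Other genes of the same physiology were read in the same way. Of 79 further channel genes 38 were tested, and in *Mettl3* KO against WT *Kcnn3*, a small-conductance calcium-activated channel like *Kcnn2*, rose from 37 and 43 to 74 and 98 (log2 fold change 1.08, limma adjusted p = 0.049). Between the knockouts *Kcnn4* of the same family was higher in *Trdn-as* KO (1.74, adjusted p = 0.041). The CTCF value at *Kcnj14*, an inward rectifier, was lower in the *Trdn-as* than in the *Mettl3* knockout (-1.29, adjusted p = 0.046). None of 16 connexin and junction genes was called. Of 25 genes of channel partners and regulators *Camk2d*, a calcium-dependent kinase that acts on channels, rose in *Mettl3* KO (0.51, limma adjusted p = 0.039). None of these 3 lists had a member called in *Trdn-as* KO against WT. Over the 12343 genes, 1.76% were called for Pol II in *Mettl3* KO against WT and 2.06% between the knockouts. For CTCF between the knockouts 1.37% of all peaks were called.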

How the data were processed

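Pol II, CTCF and IgG ChIP-seq libraries of mouse ventricles of the 3 genotypes were used, 15 libraries in 1 table of 101256 peaks. The 3 inputs were not analysed here. Per the submitters' notes and the study's methods, the authors trimmed reads with Trimmomatic 0.39, aligned them to mm39 (GRCm39) with STAR 2.7.11b, removed duplicates with Picard 3.1.1, merged peaks, counted reads with featureCounts and normalized them with DESeq2 1.36.0. The deposited values are these normalized counts rounded to whole numbers (a score, not raw counts), so no count model was used.

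The members and gene lists were chosen with earlier results of these data known. Each genotype was tested with limma 3.58.1 (R 4.3.3) on log2(value + 1) with a variance trend, over the 6 libraries of a target, at peaks that reached a value of 10 in 2 or more libraries. Adjustment was Benjamini-Hochberg over all peaks at 0.05. Fold changes on this scale understate those of low values. A member was tested where it passed the filter, 28 of 28 for Pol II and 27 for CTCF. Named in full were members called, the highest and lowest of each role, and up to 3 per direction and Pol II comparison with the largest changes and non-overlapping libraries. Of other lists, up to 4 called genes per direction were named. The value of 1 read was 0.945 to 2.04 for Pol II, 0.284 to 0.458 for CTCF and 2.55 to 6.57 for IgG, and a count of 0 allows up to 3 reads, which covers counting error only. Sequences were read from RefSeq tables of GRCm38.p6, of which no coordinate was carried to GRCm39. Python 3.11.15, pandas 2.3.3, numpy 2.4.6 and matplotlib 3.10.9 were used for the rest. Alternatives were 2 other scalings, no filter, a pseudocount of 5, no variance trend, only the compared genotypes, a replicate block, a threshold of 0.01, all promoter peaks of a gene summed, and leaving out each library.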

Additional observations from a re-analysis of the deposited data

Results flagged for a closer look

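The 2 knockouts differed from each other at 2 of the 56 promoter peaks of the set that were tested, by a test of the difference itself, where 1.5% of all peaks were called. At the *Scn4b* promoter the log2 fold change of *Trdn-as* KO over *Mettl3* KO was 2.52 (adjusted p = 0.0011 from limma), with Pol II values of 54 and 24 against 6 and 5. At the second promoter peak of *Kcnip2*, which lies 2410 nt from the annotated start, it was 1.16 (adjusted p = 0.043 from limma), with 74 and 71 against 42 and 24 and with WT at 49 and 81. The cause of either difference was not tested.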

How the results depend on the processing

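Depth and 2 libraries per genotype limit these results, and a low share of reads in peaks in *Trdn-as* KO replicate 2 limits those of *Trdn-as* KO. Where leaving out a library leaves a genotype with 1, that library is assumed to vary like the others. Numbers of members called are given for each alternative that moved them by more than 1.5 times, and the cause was not tested. For Pol II in *Trdn-as* KO against WT, 0 became 1 with median-of-ratios factors and 0 to 2 without each library. In *Mettl3* KO against WT, 2 became 1 with uniquely mapped reads as library size, 5 with median-of-ratios factors, 0 without the filter, 0 without the variance trend, 6 with only the 2 genotypes, 1 at an adjusted p below 0.01, 4 with summed promoter peaks and 0 to 6 without each library. Calls over all peaks, 375 higher and 254 lower, moved too, to 4110 and 781 with only the 2 genotypes and to 4096 and 835 without *Trdn-as* KO replicate 1. Between the knockouts, 1 became 0 with uniquely mapped reads, without the filter, without the trend and with only the 2 genotypes, 3 with median-of-ratios factors, 2 with a pseudocount of 5, 3 with summed peaks and 0 to 12 without each library. For CTCF, 0 became 1 in *Trdn-as* KO with summed peaks (*Cacna1h*), 1 in *Mettl3* KO with uniquely mapped reads or median-of-ratios factors (*Kcne1*), 2 with summed peaks (*Kcne1* and *Kcna5*) and 1 between the knockouts with median-of-ratios factors (*Kcnk3*). For gene bodies, 0 became 1 in *Trdn-as* KO with uniquely mapped reads (*Cacna1h*) or median-of-ratios factors (*Kcne1*) and 0 to 1 without each library, and in *Mettl3* KO 1 became 0 with uniquely mapped reads or without the trend and 2 with median-of-ratios factors (*Kcne1* and *Hcn2*). Scaling to uniquely mapped reads turned *Kcnj12* (-0.28) and *Kcnj5* (-0.19) in *Trdn-as* KO against WT and *Kcnd2* (-0.075) between the knockouts. It moved the median of all peaks from 0.08 to -0.06 in *Mettl3* KO against WT and from -0.16 to -0.62 between the knockouts. *Scn4b* in *Mettl3* KO kept its direction in 15 of 15 alternatives (-2.92 to -1.44) and its call in 9, and *Kcnk3* (0.56 to 0.80) its call in 7. *Kcne1* at its body peak kept its call in 12 of 14 (1.54 to 1.74).

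Libraries with the same replicate number did not deviate together (correlations of -0.24 to 0.0059 over peaks), so no pairing by number was seen. With the replicate block, members called for Pol II were 0, 2 and 1 in the 3 comparisons, 0 for CTCF, and 1 for gene bodies in *Mettl3* KO. Because the CTCF correlation of WT and *Trdn-as* KO was -0.24, a block with crossed numbers was added after the data were seen. It was fitted to the CTCF libraries of these genotypes alone and gave 0 calls at members and 0 over all peaks tested. Fewer libraries were left to estimate the spread, so this result cannot show what the pairing does.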
